A study of Mus musculus with 4 samples.

Results

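The genes described here encode long coiled-coil proteins that build the scaffolds of the Golgi apparatus and the centrosome. They were followed in a deposited list of RNA positions reported for mouse NRAS/AE9a leukemia cells. Rows were taken where the transcript label named Golgb1, Golga2, Golga3, Golga4, Akap9, Cep250, Pcnt, Cep290, Ninl or Crocc. That gave 2470 of the 506952 listed positions, spread over 7 of the 10 genes. The genes were chosen by family and with their number of listed sites known, so site counts, and levels from the same list, are given as a description without a test.

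The study made 4 libraries of bisulfite-converted poly(A) RNA, 2 labelled WT and 2 labelled Tet2 KO. All 4 came from cells carrying NRAS and AE9a, grown in medium that held the cytokines SCF (50 ng/ml), IL-3 (10 ng/ml) and IL-6 (10 ng/ml) under selection with puromycin (2 µg/ml) and G418 (1 mg/ml). Bisulfite changes unmethylated cytosine to uracil, and Tet2 is an enzyme that oxidises 5-methylcytosine. By its name, the list holds significant sites unique to the KO, and it has 0 columns of WT values and 0 columns of a single library. No KO against WT difference could therefore be tested, and each value below is that of the 1 KO library that made the call or the mean of both. The labels do not say whether the replicates were separate cultures or how Tet2 was disrupted, so p-values or SDs over them would measure only the spread between these samples, which could be technical.

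Each site has a level, the fraction of the reads used there that the authors counted as unconverted, and a coverage, the number of reads over the position. Listed sites had a level of at least 0.2 and a coverage of at least 10 reads, up to 721. Library totals were not used here. Of all 21900 protein-coding genes, 34.2% had at least 1 site, and the share was 51.4% of 8730 genes that the RefSeq start-site table puts on the plus strand, against 18.5% of 8762 minus-strand genes. Of the 14 markers fixed for myeloid leukemia cells, 13 had a site, namely all 10 plus-strand markers and 3 of 4 minus-strand ones. For other blood cells and stroma this was 1 of 5 T and NK cell markers, 0 of 4 B cell, 0 of 4 erythroid and 0 of 4 stroma markers. Only 2, 1, 2 and 2 of these, in that order, were known to be on the plus strand. The others were on the minus strand or of unknown strand. All 6 endocrine pancreas markers had sites, and their part in the values below was not tested.

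Golgins are rod-like proteins anchored at Golgi membranes, where they catch incoming vesicles and hold the stacked cisternae in a ribbon. Centrosomal coiled-coil proteins form the linker between the paired centrioles, the material around them that nucleates microtubules, and the base of the cilium. Akap9 belongs to both places, since the protein anchors protein kinase A at the centrosome and at the cis-Golgi. The genes are long and their products have many heptad repeats.

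The bases at the listed positions could be read for 25 of the 2470 sites, those that lie in RefSeq windows running from 250 bases before to 50 bases after a transcript start (GRCm38.p6, the build called mm10). Golga2 had 3 such sites in its own window. Cep250 had 19 and Akap9 had 3, in windows of transcripts that start on the opposite strand inside these genes. The stretches below hold most of the 25 sites and are shown because they give the base under each site. They are the plus strand, 5′ to 3′, which is the sense of all 3 genes, and capitals mark the listed positions.
Golga2, chr2:32288352-32288375: tcggaagaaAccagGcagagCaaa
Cep250, chr2:155975688-155975716: aacagCtAcagctcacctagaacAgctgc
Cep250, chr2:155975723-155975751: acGcagaaagacagGaagaaacacttGct
Cep250, chr2:155975774-155975802: ccctagtAcgggaGaggGcagCtcttgag
Cep250, chr2:155975810-155975839: tgCAggCtgtggagCgggaccgaCaggAcc
Akap9, chr5:4077204-4077232: cattctAtcattctcCtggtggGctgcag

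Of these 25 positions, 8 were C in the reference (32%, exact binomial 95% interval 14.9 to 53.5), 9 were G, 8 were A and 0 were T. A level at a reference G or A is listed by the authors in the same columns as one at C, and no header or label says what it measures there. At the 8 reference cytosines the level ran from 0.231 to 1 with a median of 0.701. At the other 17 positions it ran from 0.206 to 0.722 with a median of 0.474.

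In Golga2 the reference A at 32288361 had a level of 0.5 (7 of 14 reads used, Wilson 95% interval 0.268 to 0.732). The G at 32288366 had 0.538 (7 of 13, 0.291 to 0.768) and the C at 32288372 had 0.8 (8 of 10, 0.49 to 0.943). These intervals overlap. In Cep250 the highest of the readable sites was the C at 155975833, with 10 of 10 reads (0.722 to 1), and 4 bases on, the A at 155975837 had 13 of 18 (0.491 to 0.875). Both Cep250 sites stand in the stretch that ends at 155975839, where 6 positions are listed in 30 bases. Of the 5 readable Cep250 sites called in both KO replicates, 1 was at a C. In Akap9 the C at 4077219 had 12 of 19 reads (0.632, interval 0.41 to 0.809), the A at 4077210 had 11 of 26 and the G at 4077226 had 4 of 14.

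Across the list the sites were likewise at C, G or A and not at T. The share at C, 51.9%, was higher than the 32% of the 25 member sites. On the plus strand, 26.9% of all bases in the RefSeq windows were C and 23.1% were T. The interval of the member sites, 14.9 to 53.5, includes both shares of C. Of 5942 plus-strand sites in such windows, 3084 were C (51.9%, exact interval 50.6 to 53.2), 1783 G, 1075 A and 0 T. One base to the left of the same sites, 1042 of 5928 were T, and 1 base to the right 1100 of 5900 were T. Minus-strand sites were at a C of their own strand in 130 of 144 cases (90.3%). Plus-strand sites called in both KO replicates were at a C in 581 of 847 cases (68.6%), and those called in 1 replicate in 2503 of 5095 (49.1%). The reference base of the other 2445 member sites was not analysed here. Levels below are thus the authors' values at listed positions, and only at readable cytosines are they known to be levels of a cytosine.

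Among the members, the number of sites followed the strand of the genome. The same held for the list as a whole, where 502191 of the 506952 sites were on the plus strand. The 7 genes with sites, all on the plus strand, held 551 (Golgb1), 535 (Cep250), 493 (Akap9), 463 (Golga4), 254 (Golga3), 168 (Golga2) and 6 (Cep290). Pcnt, Ninl and Crocc, the 3 genes on the minus strand, had 0 sites, and their spans held 0 listed positions of any label on either strand. Over all protein-coding genes, the shares with at least 1 site were 51.4% for plus-strand and 18.5% for minus-strand genes, and with at least 5 sites 49.8% and 1.24%. The strand of Golgb1 and Golga4 was taken from their sites, and that of the other 8 genes from RefSeq.

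**Figure D1:**
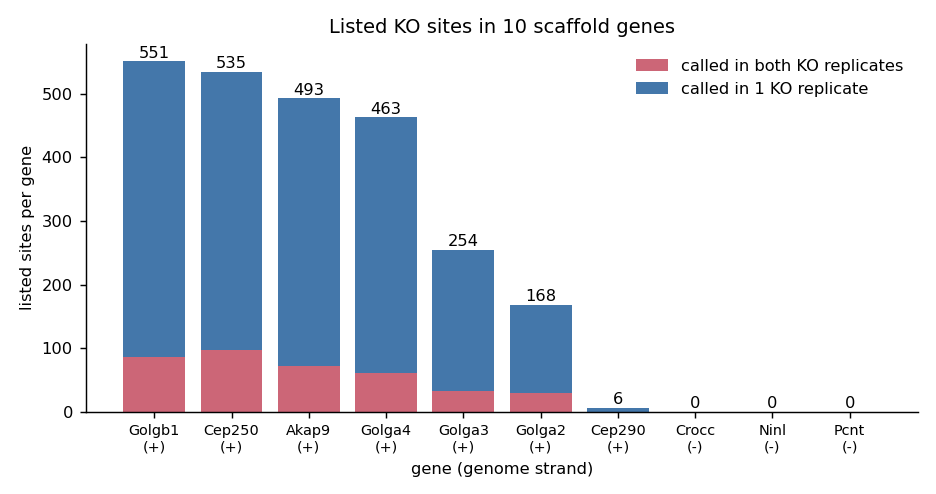
Number of listed sites (y axis) in each of the 10 genes (x axis, with the genome strand), split into sites called in both KO replicates and in 1. The 6 genes at the left have 168 to 551 sites, Cep290 has 6, and the 3 minus-strand genes have 0.

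Giantin, the product of Golgb1, is the longest golgin and spans the Golgi membrane at its end. Golgb1 lies on chromosome 16 from 36875093 to 36933085, and its 551 sites ran from 36885121 to 36932995. This was the third highest count among 7499 protein-coding genes with a site. By sites per kb of span (9.5) Golgb1 ranked 845 among them. Levels had a median of 0.455 (quartiles 0.321 and 0.611), and coverage a median of 18 reads. The highest level at 50 or more reads was 0.788 at 36929371 (41 of 52 reads used, Wilson interval 0.66 to 0.878). The most deeply covered site, at 36919421 with 69 reads, had 24 of 58 (0.414, interval 0.296 to 0.542). The first of these sites was picked for its high level, so the gap between them is a description.

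Golgb1 sites were packed into a few stretches. With sites up to 300 nt apart joined, 350 of the 551 (63.5%) fell in 1 block of 5114 nt between 36911877 and 36916990, or 1 site every 14.6 nt. A second block of 83 sites lay 919 nt further on and covered 1876 nt. The median levels of both blocks, 0.456 and 0.467, were close to that of the whole gene. The block structure depends on the joining distance: at 100 nt the largest Golgb1 block held 106 sites. Whether these blocks are exons was not analysed here, as no exon annotation was used.

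Golga4 encodes p230, a golgin of the trans-Golgi network that is held there by a GRIP domain. It lies on chromosome 9 from 118506196 to 118582519 and had 463 sites with a median level of 0.514 (quartiles 0.4 and 0.667). Like Golgb1 it had a dominant block, of 255 sites over 4023 nt from 118555717 to 118559739, which shrank to 118 sites at a joining distance of 100 nt. The deepest site of Golga4, at 118558353, belonged to 4 consecutive positions that were all listed. From 118558351 to 118558354 these had 25 of 61, 30 of 63, 32 of 62 and 34 of 62 reads, levels of 0.41, 0.476, 0.516 and 0.548. Their Wilson intervals together reach from 0.295 to 0.666 and overlap one another. The reference bases there were not read.

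Golga3 encodes golgin-160, a golgin on the cytoplasmic face of the Golgi. It lies on chromosome 5 from 110176857 to 110226470 and had 254 sites in 22 blocks, the largest with only 24 sites (9.45%). Its median level was 0.5 (quartiles 0.364 and 0.666). The highest level at 50 or more reads was 0.78 at 110216950 (32 of 41, interval 0.633 to 0.88), and 17 nt before it, at 110216933, a site called in both replicates had a mean of 0.236 ± 0.0354 (SD, n = 2). The first was picked for its high level, and the difference was not tested.

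Golga2 encodes GM130, the cis-Golgi golgin that binds the vesicle tether p115. At 19.6 kb it has the shortest span of the 10 genes, on chromosome 2 from 32288287 to 32307913. Its 168 sites had the highest median level (0.542, quartiles 0.426 and 0.694) and the highest median coverage (27 reads) among the 7 genes. It also had the most sites with 50 or more reads, 24 of 83 in all. The highest level among these was 0.726 at 32304217 (45 of 62, interval 0.604 to 0.821). The deepest site, at 32302927 with 81 reads, had 26 of 65 (0.4, interval 0.29 to 0.521). The last block of Golga2, from 32304639 to 32307836, held 67 sites (39.9%).

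Akap9 spans 152 kb of chromosome 5, from 3927736 to 4080204, the longest of the 10. Its 493 sites fell into 41 blocks, whose summed length was 7036 nt or 4.61% of the span. The largest, of 104 sites between 3960157 and 3962452, lay 32.4 kb from the start, and the last 4 deciles of the span held 60, 90, 107 and 47 sites. The median level of 0.462 (quartiles 0.308 and 0.615) and median coverage of 16 reads were low for the set. The deepest site, at 4061179 with 51 reads, had 22 of 41 (0.537, interval 0.387 to 0.679) and was also the highest at that depth. Akap9 had 5 consecutive listed positions, 3960723 to 3960727, with levels of 0.5, 0.7, 0.8, 0.3 and 0.5. At 10 reads used for each, their intervals reach from 0.108 to 0.943, so these levels cannot be ordered.

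Cep250 encodes C-Nap1, which ties the ends of the centrioles to the linker made of rootletin. Its 535 sites on chromosome 2 between 155961926 and 155998817 were the fourth highest count among genes with a site. At 12.6 sites per kb of span it was the densest of the 10, against a median of 3.1 over 5310 plus-strand genes with at least 5 sites. By this density Cep250 ranked 525 among the 7499 protein-coding genes with a site. The median level was 0.529 (quartiles 0.385 and 0.7). Its largest block, from 155990216 to 155992733, held 173 sites in 2518 nt and was the same at joining distances of 100 and 500 nt. The deepest site of all members was in this block, at 155992060 with 109 reads. It was called in both replicates at 0.694 ± 0.0283 (SD, n = 2), with 0.674 in one and 0.714 in the other. The highest site at 50 or more reads, at 155991347, had 36 of 46 (0.783, interval 0.644 to 0.877).

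Cep250 also had 5 consecutive listed positions, from 155976473 to 155976477. Their levels were 0.651, 0.766, 0.308, 0.5 and 0.767. The 3 of them called in both replicates had SDs of 0.0226, 0.214 and 0.141, so neighbouring bases could not be told apart where the replicates spread widely.

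Cep290, which encodes a protein of the ciliary transition zone, was the exception among plus-strand members. It spans 88.1 kb of chromosome 10, from 100487548 to 100575671, yet had 6 sites, all called in 1 replicate. Plus-strand genes with a site and a span of at least 40 kb had a median of 101 sites. Of the 6, 5 fell within 22 nt, from 100563374 to 100563395. Along this stretch the reads were 5 of 15, 7 of 13, 5 of 10, 11 of 11 and 3 of 12, that is levels of 0.333, 0.538, 0.5, 1 and 0.25. The fourth of these, at 100563387, had an interval of 0.741 to 1, and the fifth, at 100563395, one of 0.0889 to 0.532; the difference was not tested. The sixth site, at 100551381, had 2 of 10 reads. Coverage of the Cep290 sites ran from 10 to 16 reads, close to the minimum of 10. Fewer reads and fewer positions that pass cannot be told apart in this list.

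Pcnt encodes pericentrin, which organises the material around the centrioles, Ninl a ninein-like protein that anchors microtubules, and Crocc rootletin, the partner of C-Nap1 in the centriole linker and the ciliary rootlet. Their spans of 91.7, 74.9 and 44 kb are of the same order as those of the genes with many sites. As the list holds only positions above a level and a coverage minimum, 0 sites sets no upper limit on their level.

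Levels differed little among the 6 genes with many sites. Their medians ran from 0.455 in Golgb1 to 0.542 in Golga2, within quartiles that overlap for each pair. Over the 2470 sites the median was 0.5 (quartiles 0.359 and 0.654), against 0.531 (0.371 and 0.7) for all plus-strand sites. Ranked by median level among the 5310 plus-strand genes with at least 5 sites, Golga2 stood at 2335, Cep250 at 2736, Golga4 at 2994, Golga3 at 3116, Akap9 at 4557, Golgb1 at 4703 and Cep290 at 5126. Golgb1, with the most sites, ranked low, while Cep250, with nearly as many, had the second highest median of the 7. A level of 1 was listed at 30 member sites (1.21%), of which 7 were in Akap9 and 1 in Cep290, against 3.98% of all plus-strand sites. Levels under 0.3 made up 103 of 551 sites in Golgb1, 99 of 493 in Akap9 and 38 of 254 in Golga3. They made up 20 of 168 in Golga2, 53 of 463 in Golga4, 56 of 535 in Cep250 and 2 of 6 in Cep290. The share over all plus-strand sites was not computed.

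**Figure D2:**
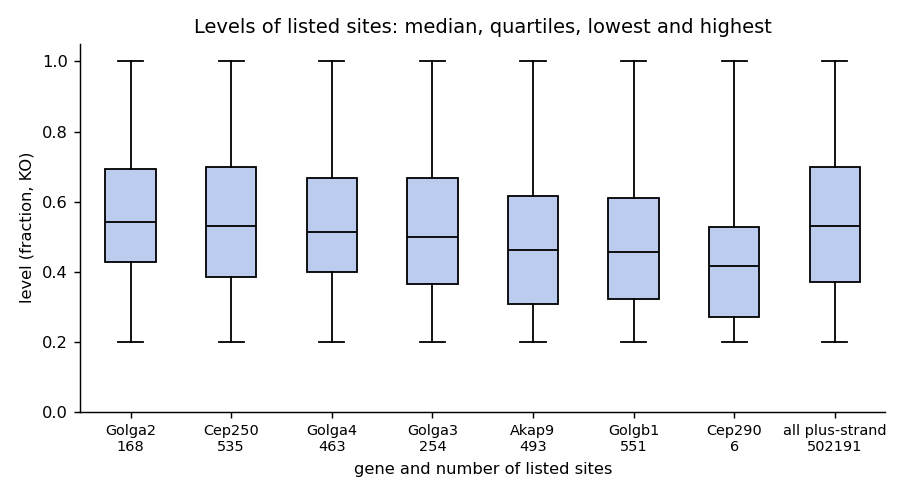
Level of the listed sites (y axis, fraction) in the 7 genes with sites and over all plus-strand sites, with the number of sites under each name. Boxes give quartiles and median, whiskers the lowest and highest level; the medians run from 0.416 in Cep290 to 0.542 in Golga2, and all boxes overlap that of all plus-strand sites.

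In each of the 6 genes with many sites the median level was lower in the highest coverage quartile than in the lowest. In Cep250 the median level was 0.592 in the lowest coverage quartile of sites (10 to 16 reads) and 0.483 in the highest (27 to 109 reads). In Akap9 these values were 0.5 and 0.417. They were 0.625 and 0.557 in Golga2, 0.545 and 0.5 in Golga3 and 0.522 and 0.476 in Golga4. In Golgb1, where the gap was smallest, they were 0.455 and 0.444. The fall was not steady across the quartiles. The highest median stood in the second quartile in Golgb1 (0.5) and Golga4 (0.554). The lowest stood in the third in Golga2 (0.508) and Golga3 (0.444). In Cep250 and Akap9 the third (0.545 and 0.467) was above the second (0.5 and 0.462). Sites of 1 gene share reads, so they are not independent replicates. Only sites with a level of at least 0.2 were listed, and how this minimum bears on the fall was not tested. The same split was not made over all plus-strand sites.

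The level rested on part of the covering reads. At sites called in 1 replicate the median share of covering reads used was between 81.4% (Golga2) and 84.6% (Akap9) in the 6 genes. Fewer than 1 in 2 covering reads entered the level at 33 of 438 such sites in Cep250, 26 of 465 in Golgb1 and 18 of 422 in Akap9. The counts were 10 of 139 in Golga2, 10 of 221 in Golga3 and 12 of 402 in Golga4. The share over all listed sites was not computed. No header or label says why the remaining reads were left out.

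Most member sites were called in 1 KO replicate. Both replicates made the call at 377 of 2470 (15.3%, exact interval 13.9 to 16.7), and 14.2% of all listed sites were called in both. By gene the share was 18.1% in Cep250 (97 sites, interval 15 to 21.7), 17.3% in Golga2 (29), 15.6% in Golgb1 (86), 14.4% in Akap9 (71), 13.2% in Golga4 (61, interval 10.2 to 16.6) and 13% in Golga3 (33). The intervals overlap, and cover counting error only. At the shared member sites the replicates differed by a median of 0.106 in level, and by as much as 0.608 at a Cep250 site. Where both replicates covered a Golgi gene most deeply, they lay close together. The mean levels were 0.392 ± 0.024 at 36918838 in Golgb1, 0.389 ± 0.0354 at 32302202 in Golga2 and 0.345 ± 0.0269 at 118560807 in Golga4 (SD, n = 2 for each). In Akap9 the site at 4064550 had 0.394 ± 0.0707 (SD, n = 2).

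Along the genes, the sites labelled with a member were a smaller share at both ends of the span than over all genes. With each span cut into 10 equal deciles, the last decile held 211 of 2470 sites (8.54%, exact interval 7.47 to 9.71), against 28.8% over all pairs of a site and a gene. The first decile held 18 (0.729%), against 8.35%. The seventh decile held 610 (24.7%, against 8.84%), and 233 of these were in Golga4 and 257 in Golgb1. Without these 2 genes the last decile held 9.41% and the seventh 8.24% of 1456 sites. Golga2 had 25% of its sites in the last decile. Outside runs, that is with no other listed site within 10 nt, the share in the last decile was 15.8% of 525 member sites, against 30.6% of all pairs under the same limit. Listed sites with no gene label also lie inside the spans of Golgb1 and Golga3. With these added, the first decile held 35 of 2547 sites (1.37%, 17 of them in Golgb1) and the last 262 (10.3%), and the share in the last decile of Golga3 was 20.7% (63 of 305) in place of 4.72%. Neither read coverage nor the position of exons enters these shares, and they were not tested.

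**Figure D3:**
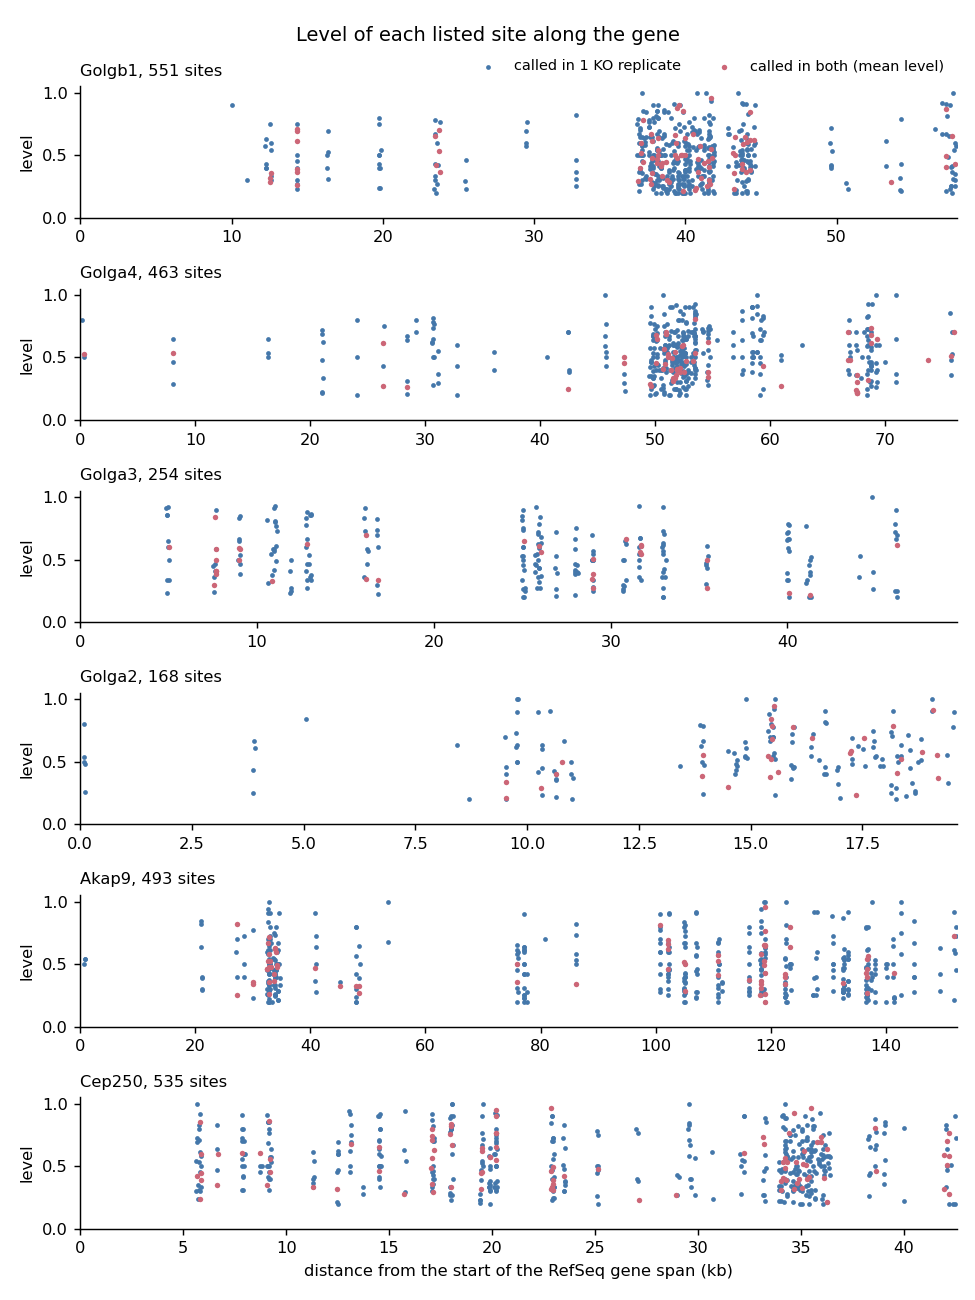
Level of each listed site (y axis) against its distance from the start of the RefSeq gene span in kb (x axis, scaled to each gene) in the 6 genes with many sites; colours separate sites called in 1 and in both KO replicates. Golgb1 and Golga4 show 1 dense block each, of 350 and 255 sites, while Akap9 and Golga3 show 41 and 22 smaller blocks with levels from 0.2 to 1.

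The order within the genes differed. Akap9 had 113 of its sites in the third decile and 107 in the ninth, Cep250 105 in the fifth and 165 in the ninth, and Golga2 45, 34 and 42 in the last 3. Golga3 had 0 sites in the fifth decile and 74 in the sixth. Median levels in these deciles were 0.459 in the third and 0.4 in the ninth for Akap9, 0.572 in the fifth and 0.533 in the ninth for Cep250, and 0.574, 0.536 and 0.545 in the last 3 for Golga2.

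Member sites stood close together. Another listed site lay within 10 nt on the same strand for 1945 of 2470 (78.7%), against 70.6% of all plus-strand sites. Genes were not matched for their number of sites in this comparison. The share was 82.1% in Cep250, 80.7% in Akap9, 79.5% in Golgb1 and Golga3, 75.8% in Golga4 and 66.7% in Golga2. Directly adjacent positions were both listed 63 times in Cep250, 60 times in Golgb1 and 54 times in Akap9 and in Golga4.

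Other genes of the same structures were split by strand in the same way, as was the list as a whole. Of 25 further Golgi scaffold and tether genes, 20 had a site (80%). Of the 14 on the plus strand 13 had at least 5 sites, with a median of 117 among those with a site, led by Arfgef2 with 232 (a guanine nucleotide exchange factor for ARF proteins), Bicd2 with 215 (a dynein adaptor) and Clasp1 with 181 (which stabilises microtubules). Of the 10 on the minus strand 7 had a site and 0 had 5 or more; the highest count was 3, in Arfgef1. Over all minus-strand genes the shares were 18.5% with a site and 1.24% with 5 or more. Bicd1 was the plus-strand gene with 0.

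Of 51 further genes of the centrosome and the base of the cilium, 32 had a site (62.7%). On the plus strand 23 of 24 had at least 5, with a median of 118, led by Cntrl (centriolin) with 407, Cep192 (a scaffold of the pericentriolar material) with 220 and Odf2 (a protein of the mother centriole's appendages) with 214. On the minus strand 9 of 22 had a site, of which 1 had 5 or more, Cep350 with 8, against the same 18.5% and 1.24%. Cc2d2a, a gene of the ciliary transition zone, was the plus-strand gene with 0. Strand was not given by the sources used for 1 Golgi and 5 centrosome genes, all without a site. For genes absent from the start-site table it was taken from their own sites, which leaves out such genes when they have none. On both strands the shares of both lists with a site stand above those of all genes (51.4% and 18.5%), without correction for expression.

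Some genes already counted in the centrosome list encode partners of the members. Nek2, the kinase that dissolves the centriole linker, and Lrrc45, a linker protein, are on the plus strand and had 132 and 171 sites, while Cep68, another linker protein, is on the minus strand and had 1. Iqcb1, whose product binds the Cep290 protein, had 40 sites on the plus strand. Pcm1, a centriolar satellite gene, had 189. These partners were picked for this paragraph after their counts were seen, so they add nothing to the split described above. The strand of Pcm1 was taken from its own sites. The median gene level was 0.5 in both lists (genes with at least 5 sites, plus strand), ranging from 0.441 to 0.6 in the Golgi list and from 0.421 to 0.623 in the centrosome list. The medians of the 6 members with many sites, 0.455 to 0.542, lie inside both ranges.

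**Figure D4:**
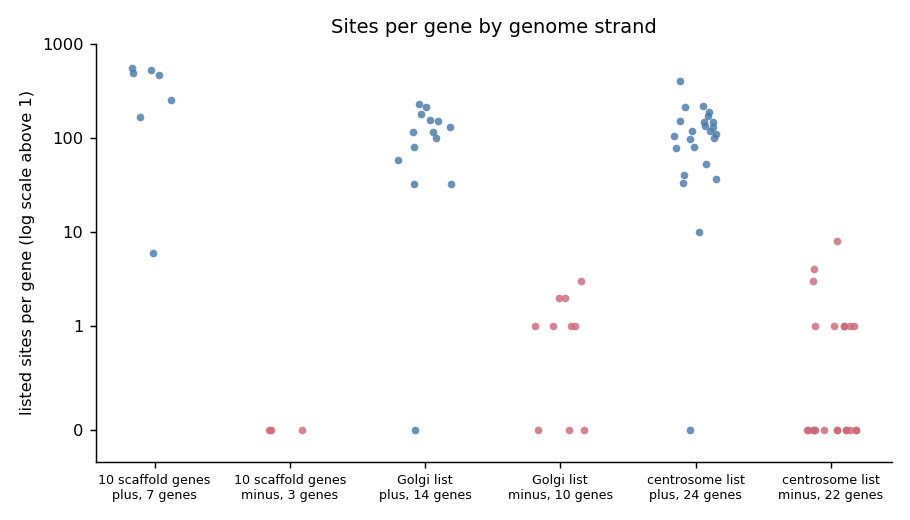
Number of listed sites per gene (y axis, log scale above 1) in the 10 scaffold genes, the Golgi list and the centrosome list, separated by genome strand; each point is 1 gene. Minus-strand genes have at most 8 sites, whereas all but 3 of the plus-strand genes have 10 or more.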

How the data were processed

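Bisulfite-converted poly(A) RNA was sequenced from 2 WT and 2 Tet2 KO libraries, per the labels; groups follow the title label. Library preparation used a stranded mRNA kit, per the labels' protocols. Coordinates are mm10, per the submitters' processing notes; the aligner and site caller were not given in the sources used here. Deposited were covering and unconverted reads, treated here as a score because they are a rounded mean where both replicates made the call. The deposited level is a fraction, with its SD, averaged by the authors over the KO replicates with a call. The deposited p-values are the authors' own, at most 0.0773 for the rate at member sites. Columns of normalized reads, the SEM and a second p-value were not used, and 0 columns held samples outside this series.

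Reads used were computed as unconverted reads over level, which gave whole numbers at 100% of sites called once (tolerance 0.0006 in level). The deposited SD was read as a population SD: the replicate levels it implies stayed between 0.2 and 1 at all 72227 shared sites (tolerance 0.0015), and among sites with an SD above 0.01 the higher replicate was then at 1 in 3604 cases, and in 0 if a sample SD is assumed (tolerance 0.001). Printed SDs are sample SDs.

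Labels were matched to RefSeq (GRCm38.p6) symbols, 7806 of 7822 with success and all 10 members directly. Gene spans were cut into 10 parts in the sense of transcription, sites up to 300 nt apart were joined into blocks, and sites within 10 nt counted as runs. Reference bases came from RefSeq start-site windows. Intervals for levels are Wilson and for shares exact Clopper-Pearson, at 95%; both cover counting error only, and sequencing reads without molecular identifiers are not independent molecules. The planned KO against WT model was not fitted, since the table has no WT values. Named sites were, per gene, the highest level among positions covered by 50 or more reads, the deepest site, and the deepest called in both replicates; from each list the 3 genes with the most sites. Longest stretches of consecutive positions, readable bases and blocks were added after the data were examined. The members and gene lists were chosen with earlier results of these data known. Steps were tested on simulated data. Python 3.11.15, pandas 2.3.3, numpy 2.4.6, scipy 1.17.1 and matplotlib 3.10.9 were used. Alternatives were other minimums of coverage, level and reads used, sites outside runs, sites with 1 gene label, and sites called in both replicates.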

Additional observations from a re-analysis of the deposited data

Results flagged for a closer look

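Listed positions without a gene label lie inside the spans of 2 of the genes and enter the values above only where the shares by decile are given with them added. Golgb1 had 26, all before its first labelled site, between 36875396 and 36883479. Their median level was 0.5 at a median coverage of 12.5 reads, and 2 were called in both KO replicates. Golga3 had 51, all after its last labelled site, between 110223355 and 110226065, with a median level of 0.455 at 16 reads and 4 called in both. All 77 are on the plus strand, as the labelled sites of both genes are. They were picked out because they are a signal outside the labelled rows, with no control value to set beside it.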

How the results depend on the processing

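The median level of the member sites kept within the median SD between the KO replicates (0.075) under all alternatives run, from 0.475 with 20 or more reads used to 0.538 at a level of at least 0.3. The number of sites fell to 1166, 475 and 83 at coverage minimums of 20, 30 and 50 reads, to 648 with 20 or more reads used, to 525 outside runs and to 377 called in both replicates, as each of these keeps fewer sites. The percentage called in both replicates was 18.8 and 17.7 at minimums of 20 and 30 reads and 13.5 outside runs. The percentage in the last decile was 10, 12.2 and 10.8 at minimums of 20, 30 and 50 reads and 15.8 outside runs, where all pairs of a site and a gene gave 30.6. It was 10.3 with the unlabelled sites inside the spans added. The other 21 values were within 1.5 times for counts, or within the counting interval or the SD. Among them are the values for sites with 1 gene label. That setting keeps all 2470 sites, so its values could not move. The causes of these shifts in percentages were not tested. Joining distances of 100 and 500 nt and the addition of unlabelled sites were chosen after the data were examined. Leaving out a replicate could not be run without single-library values. No paired analysis was possible because the table has no WT and no single-library columns. Depth limits most single levels, since the median number of reads used was 12 to 20 in the 6 genes with many sites.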
